A study of Mus musculus with 12 samples.

Results

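The genes described here are the bile and drug transporters of the mouse liver, chosen by gene symbol alone: every gene of the table whose symbol begins with Abca to Abcg, Slco, Slc22a or Slc10a and a number. There were 72 of them among the 20069 genes. The mRNA was measured by RNA-Seq in 12 liver samples of wild-type C57BL/6 mice, adults of 3 to 6 months and, per the study's methods, males, with no other genotype or treatment. All had lived for 2 weeks or more under 12 hr of light and 12 hr of darkness. Samples were taken every 4 hr from ZT2 to ZT22 (Zeitgeber time, hr after lights on) in each of 2 series, so that each time point has n = 2, and samples of different time points are different livers. Whether a sample held the liver of 1 mouse or of several is not given in the sources used here, and p-values measure the spread between these samples only.

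Bile acids circulate between liver and gut. Hepatocytes take them up from the blood at the sinusoidal membrane, mostly by carriers of the SLC10 and SLCO families, and pump them into the bile at the canalicular membrane by ATP-driven ABC proteins. The same membranes move drugs, bilirubin conjugates, sterols and phospholipids, and further ABC pumps return bile acids and conjugates to the blood. The carriers of the SLC22 family take up organic cations, organic anions and carnitine. Other ABC proteins work inside the cell, in peroxisomes and mitochondria, and a few carry no membrane domain.

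Signal is given in reads per base pair (rpbp), the coverage of a gene divided by its exon length, at a depth of 40000000 uniquely mapped sequences, so that levels can be compared between genes. Rhythms were called by the study's criteria. A gene needed at least 1 value above 8 rpbp, an F24 (the share of the variance of the 12 values that a 24 hr cosine takes up) above 0.45, a permutation p of F24 below 0.05 and an amplitude (highest over lowest of the 12 values) above 1.5. A strong rhythm needed an F24 above 0.6 and also passed the study's stricter limit on amplitude. The p is not adjusted, and the Benjamini-Hochberg adjusted p over all expressed genes is given beside it. The test takes large values of F24 and has no direction. Pairs of values are given in the order series 1 and series 2.

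Of the 72 genes, 43 had a value above 8 rpbp, and 11 of these (25.6%) were called rhythmic, against 19.2% of the 10198 expressed genes. Strong rhythms were called in 6 of the 43, against 7.89% of the expressed genes, and 3 had an adjusted p below 0.05 (*Abcb11*, *Abcg8* and *Abca2*), against 5.81%. The median F24 was 0.365 among the 43 genes and 0.310 among all expressed genes, and the median amplitude was 1.96 and 1.63. The differences between these shares and those of all genes were not tested. The 11 genes are listed by their fitted peak in 3 stretches of the day, whose limits were set after the values had been seen and were not tested. *Abcb10*, *Abca8b*, *Abca2* and *Abcb11* peaked between 21.8 and 0.657 hr. *Abcg8*, *Abcg5*, *Slc22a5* and *Slco1a4* peaked between 7.02 and 11.3 hr, and *Slc10a2*, *Slc10a5* and *Abca3* between 15.1 and 17.7 hr.

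**Figure D1:**
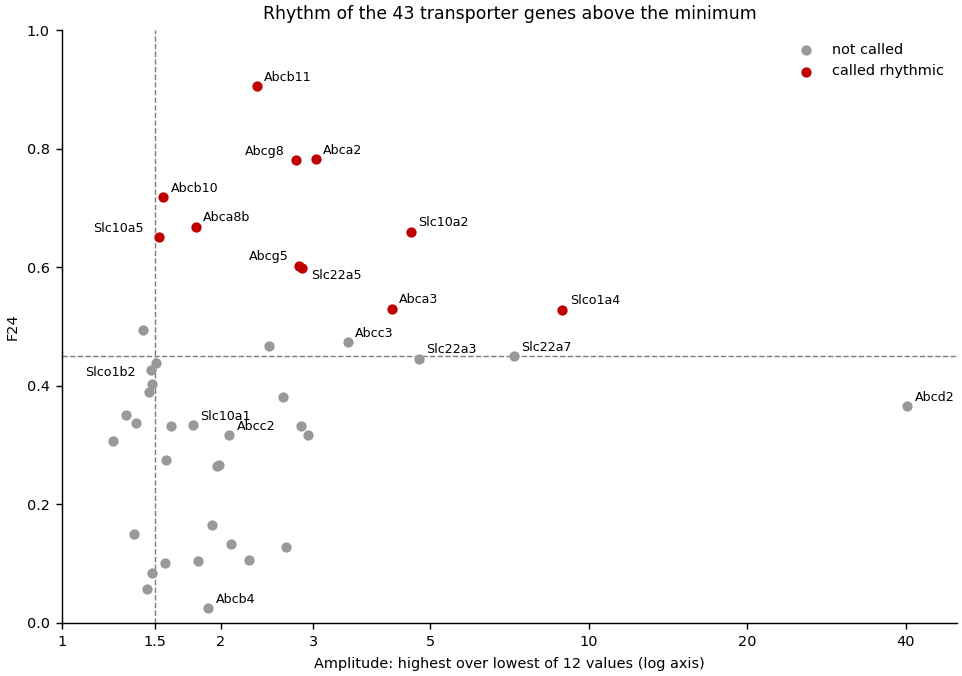
F24 (vertical axis) against amplitude (horizontal axis, log scale, highest over lowest of the 12 values) for the 43 transporter genes above the minimum. Each point is a gene, red where it was called rhythmic, and the dashed lines mark an F24 of 0.45 and an amplitude of 1.5. *Abcb11* has the highest F24 (0.906), and *Abcd2* has the highest amplitude (40.3) at an F24 of 0.365, without a call.

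The other 29 genes stayed at or below 6.48 rpbp in all 12 samples, and 16 of them had a mean under 1 rpbp. None was at 0 in every sample. They include 4 genes of the hepatocyte lists. *Abcb1a* and *Abcb1b*, which code for P-glycoprotein, a pump of many drugs, had means of 1.99 and 3.48 rpbp. *Abcc4*, a sinusoidal pump of bile acids and conjugates, had a mean of 1.62 rpbp, and *Slc22a4*, a carrier of ergothioneine, one of 3.95 rpbp. With no minimum, *Abca9*, *Abcb1a* and *Abcg3* were also called rhythmic, against 14% of all genes then tested, and *Abca9* and *Abcb1a* strongly so. *Abcb1a* was at 0.520 and 0.320 rpbp at ZT2 and at 3.32 to 4.88 rpbp at ZT6 and ZT10, levels at which a fold is uncertain.

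The 3 most abundant transporters were uptake carriers, while other carriers, such as *Slc22a3* with 6.81 ± 2.44 rpbp, were among the lowest of the genes above the minimum. *Slco1b2*, a carrier of organic anions, bilirubin and many drugs (mm9 chr6:141578039-141635167, plus strand), was the highest of the 72 genes in 12 of 12 samples, with 1191 ± 165 rpbp (SD over the 12 samples, time of day included). *Slc10a1*, the sodium-dependent bile acid carrier NTCP (chr12:82054172-82068971, minus strand), followed with 879 ± 143 rpbp and lay above the third gene, *Slco1a1* with 455 ± 126 rpbp, in 12 of 12 samples. *Abcd3* with 408 ± 133 rpbp came next, and *Slco1a1* lay above it in 9 of 12 samples, a difference that was not tested. *Slco1b2*, *Slc10a1* and *Slco1a1* together held 43.1% of the summed signal of the 72 genes. The most abundant pumps were *Abcb11* with 317 ± 94.9 rpbp and *Abcc2* with 265 ± 55.0 rpbp, and *Abcb11* lay above *Abcc2* in 6 of 12 samples.

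Of the 9 uptake carriers above the minimum, 2 were called rhythmic (*Slco1a4* and *Slc22a5*), against 19.2% of all expressed genes, and neither rhythm was strong, against 7.89%. Of the 9 export pumps above the minimum, 3 were called (*Abcb11*, *Abcg5* and *Abcg8*), and all of these rhythms were strong, that of *Abcg5* at an F24 of 0.602, just above the limit of 0.6. The difference between these counts was not tested. In bulk liver, fewer cells of a type and less RNA per cell cannot be told apart, here and in all that follows.

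The bile salt export pump *Abcb11* (ENSMUSG00000027048.8, mm9 chr2:69076339-69180671, minus strand) pumps bile acids into the bile canaliculus and had the highest F24 of the transporters. Its signal was 482 and 458 rpbp (ZT2), 352 and 292 (ZT6), 217 and 206 (ZT10), 227 and 215 (ZT14), 279.5 and 319 (ZT18), then 374 and 385 (ZT22). Both ZT2 samples lay above the other 10, and the values of both series fell to the lowest pairs at ZT10 and ZT14 and were higher again in the second part of the night. The mean was 469.6 ± 17.0 rpbp (SD, n = 2) at ZT2 and 211 ± 7.78 rpbp at ZT10, a 2.22-fold difference. F24 was 0.906 with a permutation p of 0.0002 (adjusted p = 0.0144), and the fitted peak was at 0.657 hr. The call was kept in all 12 fits without 1 sample, with an F24 of 0.891 to 0.933.

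The window from 250 bases before to 50 bases after the start of each transporter gene was read from RefSeq (GRCm38.p6), where 55 of the 72 symbols had at least 1 window. It was searched on both strands for letters bound by clock factors: CACGTG (the E-box of CLK:BMAL1), TAGGTCA (read by the REV-ERB and ROR receptors) and TTANGTAA (read by the PAR bZIP factors). The 3 motifs do not overlap in letters. TAGGTCA was in the windows of 2 transporter genes, *Abcb11* and *Slco1a1*, and in 2.61% of all 32851 windows. The *Abcb11* window (GRCm38.p6 chr2:69342567-69342866, minus strand) is shown since it belongs to the most rhythmic member, and the *Slco1a1* window (chr6:141946913-141947212, minus strand) since it is the other match. The capitals mark TGACCTA, the reverse complement of the motif. Counted from the start of the gene, it begins at position −56 in *Abcb11* and −134 in *Slco1a1*.
Abcb11: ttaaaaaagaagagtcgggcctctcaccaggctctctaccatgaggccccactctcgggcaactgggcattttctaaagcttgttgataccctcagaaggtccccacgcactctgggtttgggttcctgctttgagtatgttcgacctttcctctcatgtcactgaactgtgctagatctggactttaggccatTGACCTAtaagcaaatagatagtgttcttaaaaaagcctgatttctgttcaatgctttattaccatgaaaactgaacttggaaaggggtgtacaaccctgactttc
Slco1a1: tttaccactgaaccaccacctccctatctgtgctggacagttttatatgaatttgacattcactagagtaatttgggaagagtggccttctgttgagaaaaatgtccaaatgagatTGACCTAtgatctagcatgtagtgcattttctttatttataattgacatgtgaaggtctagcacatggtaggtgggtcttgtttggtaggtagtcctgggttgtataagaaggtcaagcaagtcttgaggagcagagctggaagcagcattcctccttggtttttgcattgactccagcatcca

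A match is a description of letters and no evidence of binding. Of these 2 genes, *Slco1a1* was not called rhythmic (below). CACGTG was in the windows of 7 transporter genes, 4 of which were above the minimum (*Abca1*, *Abca8a*, *Abca8b* and *Abcf1*), and in 7.15% of all windows. TTANGTAA was in none of the 66 windows of the transporter genes and in 2.32% of all windows.

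The other canalicular pumps had their highest and lowest means at other time points than *Abcb11*. *Abcb4*, the floppase that brings phosphatidylcholine into bile, had an F24 of 0.0241 (permutation p = 0.915), and its values ran from 108 to 205 rpbp, with 174 ± 44.7 rpbp (SD, n = 2) at the highest time point, ZT22. *Abcc2*, the pump for bilirubin glucuronides and other conjugates, was at 179 and 216 rpbp (ZT2), 372 and 338 (ZT6), 244 and 297 (ZT10), 273 and 297 (ZT14), 209 and 248 (ZT18), then 274 and 238 (ZT22). Both ZT6 samples lay above the other 10, and the ZT2 mean of 198 ± 26.4 rpbp was the lowest. The gene was not called rhythmic (F24 0.317, permutation p = 0.186), though it was without both ZT2 samples (F24 0.589, permutation p = 0.0437). It passed the F-test between time points described below (limma adjusted p = 0.0251) in 9 of 12 fits without 1 sample, and not without either ZT6 sample or the ZT2 sample of series 1 (highest adjusted p 0.101). *Abcg2*, a pump of drugs and sulfated conjugates, was lowest in both ZT6 samples (85.7 and 84.8 rpbp against 100.5 to 126 rpbp elsewhere) and was not called either (F24 0.0847, permutation p = 0.661). Its F-test adjusted p of 0.0409 (limma) was kept below 0.05 in 3 of the 12 fits without 1 sample, those without the ZT2 or ZT10 sample of series 1 or the ZT22 sample of series 2.

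*Abcg5* and *Abcg8* form the heterodimer that secretes cholesterol and plant sterols into bile, and both were called strongly rhythmic. *Abcg8* (mm9 chr17:85075642-85099673, plus strand) was at 65.0 and 73.0 rpbp (ZT2), 113 and 94.0 (ZT6), 104 and 73.4 (ZT10), 67.6 and 63.1 (ZT14), 46.9 and 40.8 (ZT18), then 59.8 and 62.8 (ZT22). Both ZT18 samples lay below the other 10, and the highest mean, at ZT6, was 2.36-fold that at ZT18. Its F24 of 0.781 reached the lower limit of p with 10000 permutations (permutation p = 0.0001, adjusted p = 0.0115), and the peak was at 7.02 hr. *Abcg5* (chr17:85057574-85082351, minus strand) was at 60.0 and 75.8 rpbp (ZT2), 119 and 114 (ZT6), 155 and 103 (ZT10), 117 and 103 (ZT14), 68.2 and 55.0 (ZT18), then 79.3 and 93.4 (ZT22). It was high from ZT6 to ZT14 and low at ZT18 and ZT2, with F24 0.602, a permutation p of 0.0171 (adjusted p = 0.11) and a peak at 9.54 hr. The rhythm of *Abcg5* was no longer strong with median-of-ratios scaling (F24 0.599), with F24 on log2(rpbp + 1) (0.575) or in 7 of 12 fits without 1 sample. The *Abcg5* call was lost without the ZT10 sample of series 1 (F24 0.529, permutation p = 0.0641), and the *Abcg8* call was kept in all 12 fits without 1 sample. In the F-test between time points the adjusted p was 0.00807 for *Abcg8* and 0.0178 for *Abcg5* (limma), and that of *Abcg5* rose to 0.0505 without the ZT2 sample of series 1.

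The signal of *Abcg5* over that of *Abcg8* was 0.922 and 1.04 (ZT2), 1.05 and 1.21 (ZT6), 1.49 and 1.40 (ZT10), 1.73 and 1.63 (ZT14), 1.45 and 1.35 (ZT18), then 1.33 and 1.49 (ZT22). *Abcg5* lay above *Abcg8* in 11 of 12 samples, and the ratio was lowest at ZT2 and highest at ZT14. The 2 genes lie head to head, and in the mm9 annotation their spans overlap on opposite strands. The library kit does not mark strand, so reads from the shared stretch cannot be assigned to either gene, and the values of both are uncertain to that extent. The mm9 spans of *Abcb10*, *Abca3* and *Abcd3* also overlap that of another coding gene, and the effect on their values was not tested. In RefSeq the starts of *Abcg5* and *Abcg8* are 110 bases apart. The window of *Abcg8* (GRCm38.p6 chr17:84682871-84683170, plus strand) is shown because it overlaps that of *Abcg5*. The capitals mark the 209 bases it shares with the *Abcg5* window, which runs from 84682962 to 84683261 on the minus strand.
Abcg8: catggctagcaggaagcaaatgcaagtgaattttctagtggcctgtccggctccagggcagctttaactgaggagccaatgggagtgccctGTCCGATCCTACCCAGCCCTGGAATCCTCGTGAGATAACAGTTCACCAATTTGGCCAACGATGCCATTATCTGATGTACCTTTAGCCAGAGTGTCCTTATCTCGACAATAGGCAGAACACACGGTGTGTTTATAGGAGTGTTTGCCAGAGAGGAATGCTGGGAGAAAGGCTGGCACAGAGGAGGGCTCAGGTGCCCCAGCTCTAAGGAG

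**Figure D2:**
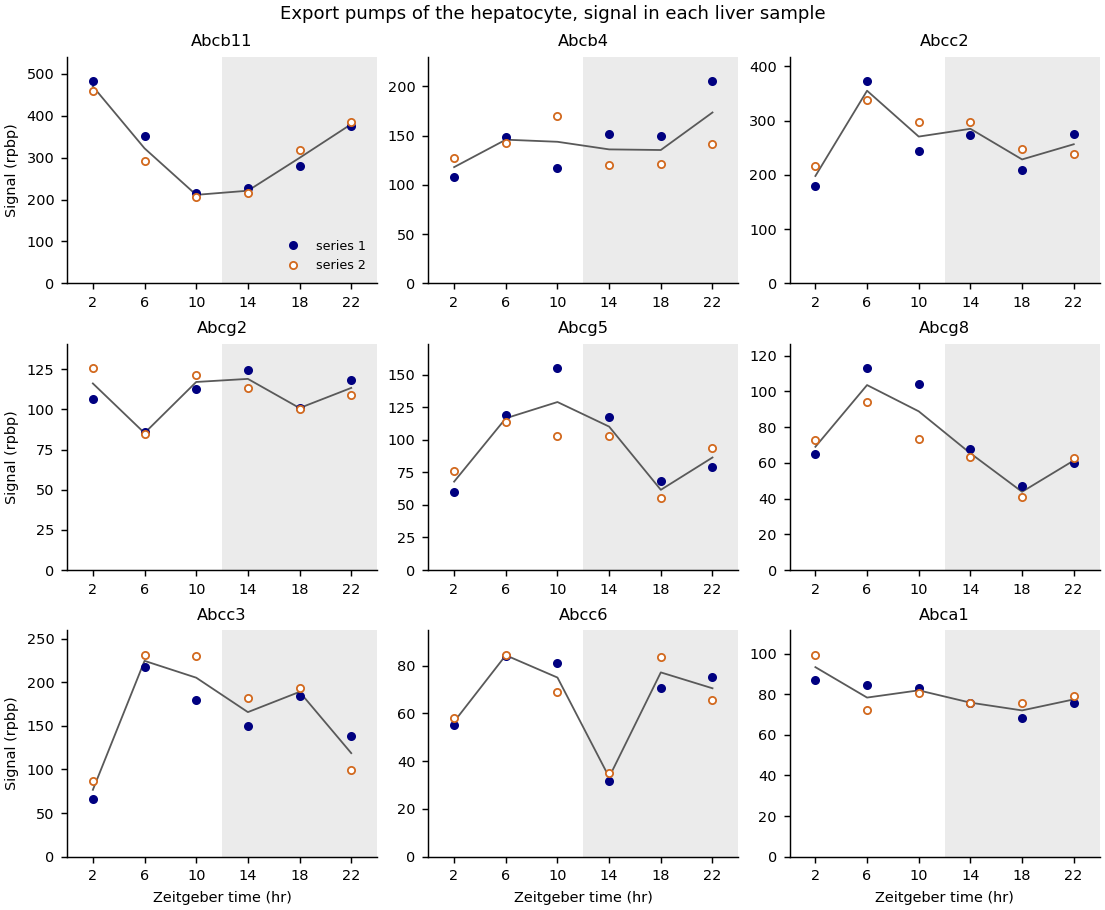
Signal in rpbp (vertical axes, from 0) of the 9 export pumps above the minimum, against Zeitgeber time in hr (horizontal axes). Filled points are series 1, open points series 2, lines join the means of the 2 samples, and the grey area is the dark phase. *Abcb11* is highest at ZT2 and lowest at ZT10, *Abcg8* is lowest at ZT18, *Abcc3* is lowest at ZT2, and *Abcc6* drops at ZT14 in both series.

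Several transporters were low or high at 1 time point without a 24 hr cosine, so a second test was added after the values had been seen. The limma F-test between the 6 time points on log2(rpbp + 1) passed an adjusted p of 0.05 in 18 of the 43 genes (41.9%), against 20.4% of the expressed genes. Of the 18, 9 were also called rhythmic. Without both ZT2 samples 7 of the 43 genes passed, against 6.15% of the expressed genes. All 7 were among the 18, and they were *Abcb11*, *Abcg8*, *Abca2*, *Slc10a2*, *Abcb10*, *Abca3* and *Abcc6*. Leaving out 1 sample gave 11 to 19 genes, with 11 without the ZT2 sample of series 1 and 11 without the ZT6 sample of series 2, where the share of all expressed genes was also lower, at 9.1% and 11.1%. Of the export pumps, 7 of 9 passed, and of the uptake carriers, 4 of 9. These counts became 5 and 1 without the ZT2 sample of series 1, and 3 of the 7 genes that passed without both ZT2 samples were export pumps. The difference between uptake and export was not tested.

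ZT2 stood out among the 6 time points. In 10 of the 43 genes (23.3%) both ZT2 samples lay below the other 10, against 9.58% of the expressed genes, and in 5 genes (11.6%) both lay above, against 10.4%. Among the 10 genes were *Slc10a1*, *Slco1a4*, *Slco2b1*, *Slc22a5*, *Slc10a2*, *Abcc3*, *Abca6*, *Abcb6* and *Abcd2*, and the 5 were *Abcb11*, *Slc22a7*, *Abca1*, *Abce1* and *Abcf2*. The lowest mean was at ZT2 in 20 of the 43 genes (46.5%) and in 21.8% of the expressed genes. Of the uptake carriers, 7 of 9 had their lowest mean at ZT2, the exceptions being *Slco1a1* and *Slc22a7*. These counts were chosen after the values had been seen and are a description.

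The marker sums of 2 of 6 cell type lists, hepatocytes and Kupffer cells, were also apart at ZT2. The summed signal of 6 hepatocyte genes was 80235 and 83119 rpbp in the ZT2 samples, against 122166 to 155445 rpbp in the others, and most of it was *Alb* (50445 and 53126 rpbp at ZT2, 93174 to 122523 rpbp elsewhere). Of the 6 genes, 4 (*Alb*, *Ttr*, *Tat* and *Ass1*) were below all other samples in both ZT2 samples, and 1, *Apoa1*, was above them (17423 and 17762 rpbp, against 7866 to 15191 rpbp). The sum of 6 Kupffer cell genes was 665 and 668 rpbp at ZT2, against 345 to 529 rpbp. The sums of 6 endothelial genes (219.8 to 227 rpbp at ZT2, 191 to 230.4 rpbp elsewhere) and of 6 stellate cell genes (231 to 255 rpbp and 242 to 304 rpbp) overlapped, as did those of 5 cholangiocyte genes (129 to 229 rpbp and 63.7 to 144 rpbp) and of 2 blood genes (329 to 409 rpbp and 295 to 857 rpbp). No marker was at 0 in all 12 samples. The part of these shifts in the results at ZT2 was not tested. Median-of-ratios size factors were 1.04 and 1.01 in the ZT2 samples and 0.975 to 1.03 in the others.

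The bile acid carrier *Slc10a1* was at 640.4 and 679 rpbp (ZT2), 1136 and 949.9 (ZT6), 1049.6 and 881 (ZT10), 857 and 958 (ZT14), 846 and 842 (ZT18), then 952 and 757 (ZT22). The ZT2 samples were the lowest of the 12, and the mean at ZT6, 1043 ± 132 rpbp (SD, n = 2), was 1.58-fold that at ZT2. It was not called rhythmic (F24 0.333, permutation p = 0.168), and the F-test between time points gave an adjusted p of 0.0653 (limma), which fell to 0.0396 and 0.0445 without the ZT22 sample of series 1 or of series 2. *Slco1b2* was at 965 and 1047 rpbp (ZT2), 1392 and 1420.2 (ZT6), 1333 and 1365 (ZT10), 1133 and 1129.9 (ZT14), 1112 and 1028 (ZT18), then 1329 and 1037 (ZT22). Both ZT6 samples were above the other 10, with a mean 1.40-fold that at ZT2. It was not called rhythmic (F24 0.426, permutation p = 0.0862, amplitude 1.47), and the F-test gave an adjusted p of 0.0651 (limma), and of 0.0187 or 0.0198 without 1 of the ZT22 samples.

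*Slco1a4*, a carrier of bile acids, steroid conjugates and cardiac glycosides such as digoxin, showed the largest fold between time-point means of the uptake carriers. Its signal was 8.52 and 9.08 rpbp (ZT2), 64.7 and 76.0 (ZT6), 61.1 and 49.2 (ZT10), 51.2 and 62.4 (ZT14), 57.0 and 39.6 (ZT18), then 35.0 and 23.5 (ZT22). Both ZT2 samples lay far below the other 10, both ZT6 samples lay above them, and values declined again from ZT18 to ZT22. The mean at ZT6, 70.3 ± 7.95 rpbp (SD, n = 2), was 7.99-fold that at ZT2, 8.80 ± 0.396 rpbp. The F-test between time points gave an adjusted p of 0.000521 (limma), which rose to 0.0628 without both ZT2 samples. The rhythm call itself was marginal, with F24 0.528, a permutation p of 0.0371 (adjusted p = 0.163) and a peak at 11.3 hr. It was kept in 6 of 12 fits without 1 sample and lost without either ZT2 sample, the ZT10 sample of series 1 or the ZT14, ZT18 or ZT22 sample of series 2 (permutation p from 0.0587 to 0.0748).

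Of the neighbours of *Slco1a4* on chromosome 6, *Slco1b2* had its highest and lowest means at the same time points, ZT6 and ZT2, and *Slco1a1* did not. In mm9 *Slco1b2* (chr6:141578039-141635167, plus strand), *Slco1a4* (chr6:141753961-141804720, minus strand) and *Slco1a1* (chr6:141855803-141895483, minus strand) lie in this order. *Slco1a1*, which carries bile acids and steroid sulfates, was at 516 and 527 rpbp (ZT2), 341 and 255 (ZT6), 504 and 215 (ZT10), 503 and 613 (ZT14), 455 and 516 (ZT18), then 599 and 414 (ZT22). The ZT10 samples of the 2 series were far apart, and the gene was not called rhythmic (F24 0.331, permutation p = 0.169), nor did it pass the F-test (limma adjusted p = 0.204) until the ZT10 sample of series 1 was left out (0.0165). At ZT2, where *Slco1a4* was at its lowest, *Slco1a1* was at 516 and 527 rpbp. *Slco2b1*, a carrier of steroid sulfates and statins, lies on chromosome 7 and was at 99.5 and 92.6 rpbp at ZT2, below the 109 to 149 rpbp of the other samples. Its F-test adjusted p of 0.0693 (limma) was 0.0207 or 0.0221 without 1 of the ZT22 samples. It was not called (F24 0.333, permutation p = 0.168), except without the ZT22 sample of series 1 (F24 0.603, permutation p = 0.0309).

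Among the SLC22 carriers, *Slc22a7* was highest and *Slc22a5* lowest at ZT2. *Slc22a7* (OAT2), a carrier of organic anions, was at 90.6 and 109 rpbp (ZT2), 23.8 and 15.1 (ZT6), 20.7 and 37.6 (ZT10), 40.3 and 24.2 (ZT14), 47.4 and 28.4 (ZT18), then 50.2 and 52.7 (ZT22). The ZT2 pair lay above the other 10, with a mean 5.14-fold that at ZT6. It passed the F-test between time points (limma adjusted p = 0.0133), but not without either ZT2 sample alone (0.0572 and 0.0734). It missed the rhythm call by a small margin, with F24 just under the limit (0.45, permutation p = 0.0536), and was called without either ZT6 sample or the ZT14 sample of series 1 (permutation p from 0.0259 to 0.048).

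*Slc22a5* (OCTN2), the high-affinity carnitine carrier (chr11:53678044-53705162, minus strand), was at 14.3 and 14.2 rpbp (ZT2), 30.2 and 26.8 (ZT6), 25.0 and 40.7 (ZT10), 27.4 and 25.2 (ZT14), 25.7 and 19.4 (ZT18), then 20.1 and 18.4 (ZT22). The ZT2 pair lay below the other 10, and the means were highest at ZT6 and ZT10, though the ZT10 samples of the 2 series were far apart. It was called rhythmic (F24 0.599, permutation p = 0.0105, adjusted p = 0.0891) with a peak at 10.9 hr, and the call was kept in all 12 fits without 1 sample. The F-test (limma adjusted p = 0.0266) was not passed without any 1 of the ZT2 and ZT6 samples (highest adjusted p 0.105). *Slc22a3* (OCT3), a carrier of organic cations, was near the minimum, at 2.52 to 12.0 rpbp, and it missed the rhythm call (F24 0.445, permutation p = 0.0599). It was called without the ZT22 sample of series 1 (permutation p = 0.0196) or the ZT14 sample of series 2 (0.0344). Its F-test adjusted p of 0.0422 (limma) was kept below 0.05 in 1 of the 12 fits without 1 sample, that without the ZT2 sample of series 2.

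**Figure D3:**
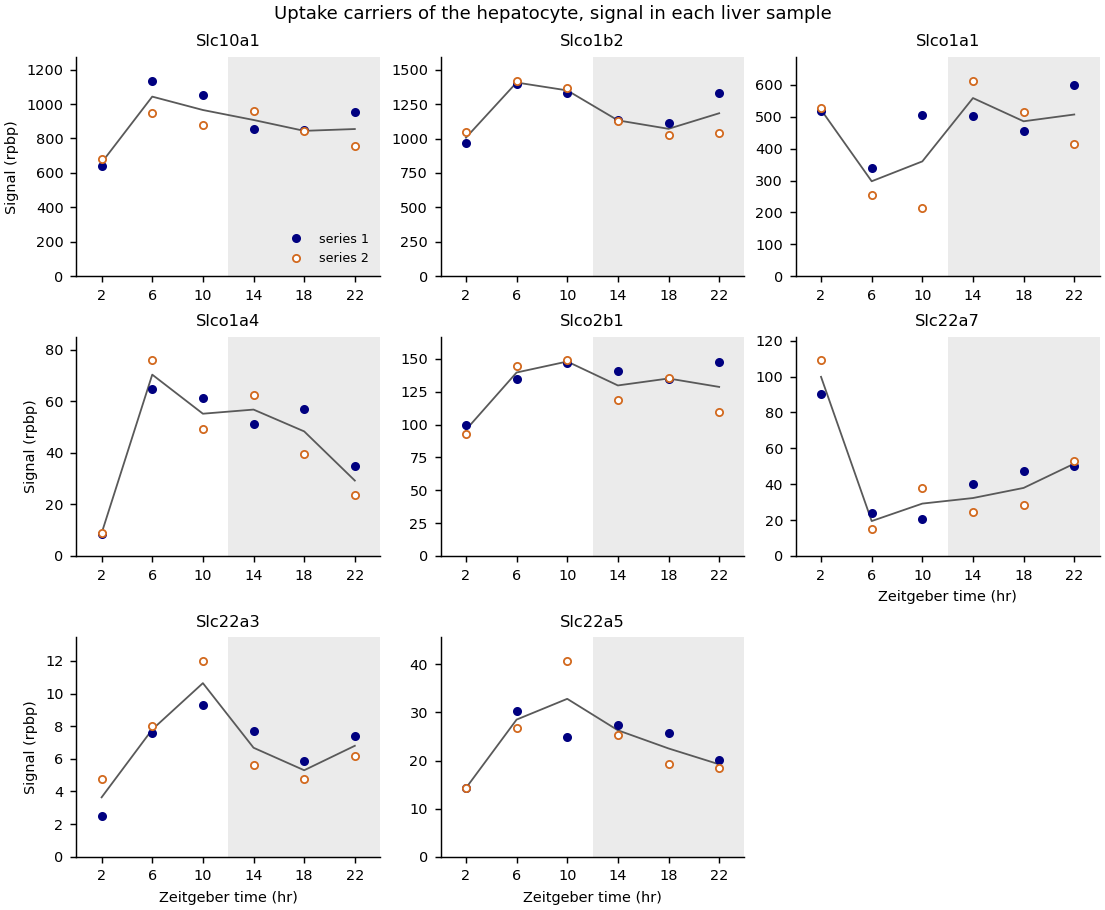
Signal in rpbp (vertical axes, from 0) of 8 uptake carriers above the minimum, against Zeitgeber time in hr (horizontal axes). Filled points are series 1, open points series 2, lines join the means of the 2 samples, and the grey area is the dark phase. *Slco1a4* starts at 8.52 and 9.08 rpbp at ZT2 and reaches 64.7 and 76.0 rpbp at ZT6, while *Slc22a7* drops from 90.6 and 109 rpbp to 23.8 and 15.1 rpbp.

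The sinusoidal pumps were low at different times. *Abcc3*, which returns bile acids and glucuronides to the blood, was at 66.5 and 86.8 rpbp (ZT2), 217 and 232 (ZT6), 179.8 and 230.4 (ZT10), 149 and 182 (ZT14), 184 and 193 (ZT18), then 138 and 99.6 (ZT22). Both ZT2 samples lay below the other 10, and the ZT6 mean was 2.93-fold the ZT2 mean. It passed the F-test (limma adjusted p = 0.00338) in all 12 fits without 1 sample, but not without both ZT2 samples (0.0642). It was just outside the rhythm call (F24 0.473, permutation p = 0.0595), and inside it without the ZT14 sample of series 1 (permutation p = 0.042) or with F24 on log2(rpbp + 1) (0.0477).

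*Abcc6*, a pump needed for ATP release by the liver and known from pseudoxanthoma elasticum, was at 55.0 and 58.1 rpbp (ZT2), 84.1 and 84.6 (ZT6), 81.2 and 68.8 (ZT10), 31.8 and 34.9 (ZT14), 70.7 and 83.7 (ZT18), then 75.4 and 65.6 (ZT22). Both ZT14 samples lay below the other 10, as in 3.00% of the expressed genes, and both ZT6 samples above them. The ZT14 mean was 33.3 ± 2.21 rpbp (SD, n = 2) and the ZT6 mean 2.53-fold as high. It passed the F-test (limma adjusted p = 0.00112), also without both ZT2 samples (0.00585), and was not called rhythmic, since a 24 hr cosine took up little of this course (F24 0.129, permutation p = 0.539). *Abca1*, which loads cholesterol onto apolipoprotein A-I, was at 87.2 and 99.5 rpbp at ZT2, above the 68.2 to 84.4 rpbp of the other samples. It passed neither test (permutation p = 0.0937; limma adjusted p = 0.177). Macrophages also express *Abca1*, and the Kupffer cell sum was higher at ZT2 as well. Its part was not tested.

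Uptake was set against export within each sample by 2 pairs, so that depth and any factor common to both genes cancel. *Slc10a1* over *Abcb11* is the main carrier of bile acids into the hepatocyte over the main pump out of it. The ratio was 1.33 and 1.48 (ZT2), 3.23 and 3.25 (ZT6), 4.85 and 4.28 (ZT10), 3.78 and 4.45 (ZT14), 3.03 and 2.64 (ZT18), then 2.54 and 1.97 (ZT22). It was lowest at ZT2 and highest at ZT10 and ZT14 in both series, without overlap between ZT2 and any other time point. The mean was 1.41 ± 0.109 (SD, n = 2) at ZT2 and 4.57 ± 0.397 at ZT10. The log2 ratio had an F24 of 0.826 with a peak at 12.1 hr and a permutation p of 0.00036 (100000 permutations), adjusted p = 0.00072 over the 2 pairs. Without both ZT2 samples F24 was 0.903 (permutation p = 9e-05). *Abcb11* alone had an F24 of 0.906 with a peak at 0.657 hr, and *Slc10a1* was not called (F24 0.333). The test of the ratio is therefore not independent of that of *Abcb11* and adds no separate rhythm. The genes of both pairs come from lists chosen with earlier results of these data known. In series 1 alone the exact permutation p was 0.0833 and in series 2 alone 0.0667, where 6 values cannot go below 0.0167.

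*Slco1b2* over *Abcc2*, a carrier and a pump of organic anions and bilirubin, gave no such course. The ratio was 5.39 and 4.84 (ZT2), 3.74 and 4.21 (ZT6), 5.46 and 4.60 (ZT10), 4.16 and 3.81 (ZT14), 5.33 and 4.14 (ZT18), then 4.85 and 4.35 (ZT22). The pairs of most time points overlapped, with the lowest means at ZT6 and ZT14. F24 of the log2 ratio was 0.069 (permutation p = 0.712, adjusted p = 0.712 over the 2 pairs), and its highest value was 1.46-fold its lowest, against 3.65-fold for the other pair. Both *Slco1b2* and *Abcc2* had their highest mean at ZT6 and their lowest at ZT2.

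The summed signal of the 9 uptake carriers was 2724 and 2823 rpbp at ZT2 and between 2810.4 and 3548 rpbp at the other times, so that series 2 at ZT22 lay within the ZT2 values. The sum of the 9 export pumps was highest at ZT6, at 1576 and 1454 rpbp, and between 1177 and 1400.0 rpbp elsewhere. The ratio of the sums ran from 2.14 (ZT2, series 2) to 2.74 (ZT10, series 1), with means of 2.20 ± 0.0816 (SD, n = 2) at ZT2 and 2.65 ± 0.116 at ZT14. These sums are led by *Slco1b2* and *Slc10a1* on one side and *Abcb11* and *Abcc2* on the other, and no test was made on them.

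**Figure D4:**
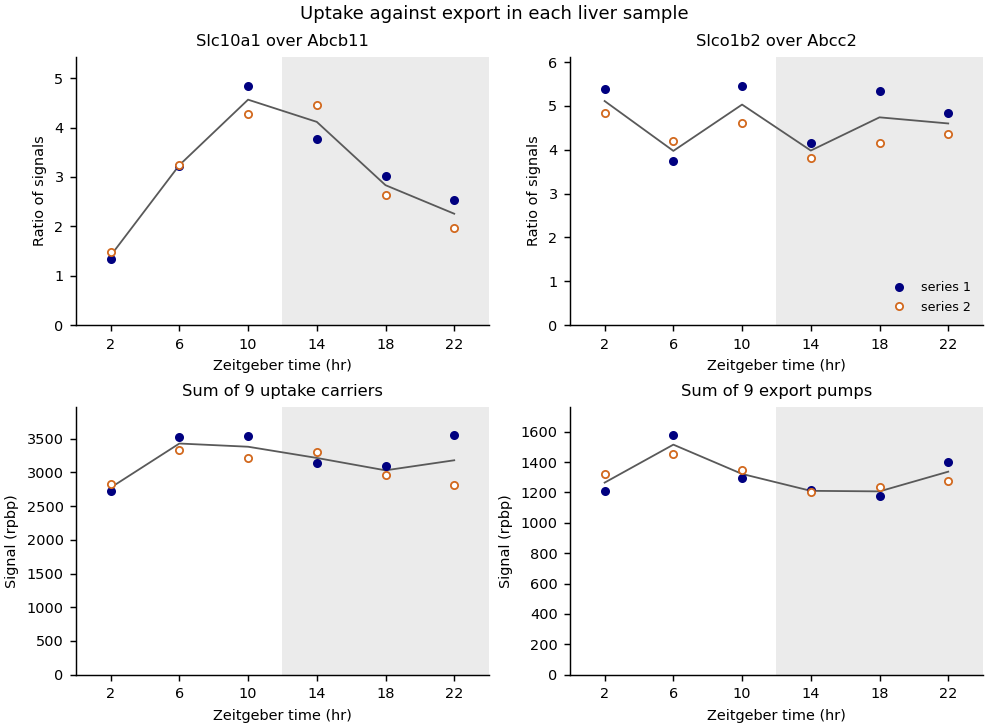
Ratios of signals (upper panels) and summed signal in rpbp (lower panels), all axes from 0, against Zeitgeber time in hr. Filled points are series 1, open points series 2, lines join the means of the 2 samples, and the grey area is the dark phase. *Slc10a1* over *Abcb11* rises from 1.33 and 1.48 at ZT2 to 4.85 and 4.28 at ZT10, while *Slco1b2* over *Abcc2* stays between 3.74 and 5.46.

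The other 6 rhythmic genes lie outside the uptake and export lists. *Abca2*, a lipid transporter of endosomes and lysosomes, was at 31.5 and 34.8 rpbp (ZT2), 16.6 and 14.6 (ZT6), 12.8 and 11.5 (ZT10), 16.6 and 17.6 (ZT14), 17.2 and 20.4 (ZT18), then 26.5 and 32.5 (ZT22). Both ZT10 samples lay below the other 10, and ZT2 and ZT22 held the highest pairs. F24 was 0.782 (permutation p = 0.0011, adjusted p = 0.0316) with a peak at 23.5 hr, close to that of *Abcb11*, and the call was kept in all 12 fits without 1 sample. *Abcb10*, a protein of the mitochondrial inner membrane linked to heme synthesis, was at 39.0 and 36.4 rpbp (ZT2), 34.0 and 33.1 (ZT6), 28.1 and 26.7 (ZT10), 32.5 and 28.9 (ZT14), 41.6 and 41.2 (ZT18), then 36.0 and 38.3 (ZT22). The ZT10 samples were the lowest and the ZT18 samples the highest, with F24 0.718 (permutation p = 0.0054, adjusted p = 0.0658) but an amplitude of 1.56, which fell to 1.48 and out of the call without the ZT10 sample of series 2. Of the other mitochondrial members, *Abcb6* and *Abcb8* were not called, and *Abcb6* was near the limit (permutation p = 0.0502, amplitude 1.42).

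*Slc10a2*, the apical bile acid carrier of the ileum and, in liver, of the bile ducts, was at 11.8 and 12.9 rpbp (ZT2), 14.7 and 21.1 (ZT6), 32.7 and 31.8 (ZT10), 54.5 and 37.0 (ZT14), 29.5 and 29.5 (ZT18), then 29.5 and 37.4 (ZT22). The 2 samples of ZT2 lay below the other 10, and the mean at ZT14 was 3.70-fold that at ZT2. F24 was 0.66 (permutation p = 0.0053, adjusted p = 0.0653) with a peak at 15.1 hr. The call was kept in all 12 fits without 1 sample and was lost without both ZT2 samples (F24 0.491, permutation p = 0.0737). The cholangiocyte sum was at 129 to 229 rpbp at ZT2, where *Slc10a2* was lowest, and its part was not tested. *Slc10a5*, an orphan of the same family, was highest in both ZT14 samples (89.0 and 86.0 rpbp against 58.4 to 80.7 rpbp elsewhere). It was called (F24 0.651, permutation p = 0.0126, adjusted p = 0.096) at an amplitude of 1.52, and the call was lost without the ZT6 or the ZT14 sample of series 1 (amplitude 1.42 and 1.47) or with the amplitude taken from time-point means (1.43). It did not pass the F-test (limma adjusted p = 0.0902).

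*Abca3*, best known as the phospholipid transporter of lung surfactant, was at 64.0 and 27.2 rpbp (ZT2), 34.0 and 33.3 (ZT6), 77.9 and 61.5 (ZT10), 96.7 and 79.7 (ZT14), 63.7 and 90.0 (ZT18), then 115 and 95.3 (ZT22). The ZT2 samples of the 2 series were far apart. Its call had the highest p of the 11 (F24 0.53, permutation p = 0.0425, adjusted p = 0.174) and was kept in 4 of 12 fits without 1 sample. It was lost without either ZT6 or either ZT14 sample, the ZT2 sample of series 1 or the ZT10, ZT18 or ZT22 sample of series 2 (permutation p from 0.0582 to 0.102). The F-test (limma adjusted p = 0.0322) was passed in 6 of these 12 fits, and not without any 1 of the ZT6, ZT14 and ZT22 samples (highest adjusted p 0.102).

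*Abca8b* belongs to a cluster of 5 subfamily A genes on the minus strand of chromosome 11, in the mm9 order *Abca8b* (chr11:109793504-109857159), *Abca8a* (chr11:109886948-109957292), *Abca9*, *Abca6* (chr11:110038134-110113090) and *Abca5*. Their roles in liver are little known. *Abca9* and *Abca5* were below the minimum. *Abca8b* was at 25.4 and 31.2 rpbp (ZT2), 23.9 and 24.4 (ZT6), 19.1 and 21.7 (ZT10), 25.7 and 18.7 (ZT14), 26.8 and 29.8 (ZT18), then 33.6 and 26.8 (ZT22), with F24 0.668 (permutation p = 0.0059, adjusted p = 0.0687) and a peak at 22.4 hr, and its call was kept in all 12 fits without 1 sample. The call was lost with the amplitude taken from time-point means (1.48), and the gene did not pass the F-test (limma adjusted p = 0.136). Its 2 neighbours above the minimum had other courses, without a call. *Abca8a* was lowest at ZT2 (40.8 ± 4.19 rpbp; SD, n = 2) and highest at ZT14 (75.5 ± 25.5 rpbp), with permutation p = 0.0615 at F24 0.467. It was called without the ZT14 sample of series 1 (permutation p = 0.026) or the ZT10 sample of series 2 (0.0229). *Abca6* was below all other samples at ZT2 (88.2 and 95.4 rpbp against 96.6 to 133 rpbp), was not called with all samples (F24 0.438, permutation p = 0.0838) and was called without the ZT22 sample of series 1 (F24 0.74, permutation p = 0.0062). The F-test gave an adjusted p of 0.0829 (limma), and of 0.0207 or 0.0268 without 1 of the ZT22 samples. The windows of *Abca8a* (GRCm38.p6 chr11:110095888-110096187, minus strand) and *Abca8b* (chr11:109995796-109996095, minus strand) are shown because both hold CACGTG, in capitals, while the highest means of the 2 genes are at different times. Counted from the start, the motif begins at position −136 in *Abca8a* and 18 in *Abca8b*. Aligned at the start, the 2 windows have the same base at 25% of positions.
Abca8a: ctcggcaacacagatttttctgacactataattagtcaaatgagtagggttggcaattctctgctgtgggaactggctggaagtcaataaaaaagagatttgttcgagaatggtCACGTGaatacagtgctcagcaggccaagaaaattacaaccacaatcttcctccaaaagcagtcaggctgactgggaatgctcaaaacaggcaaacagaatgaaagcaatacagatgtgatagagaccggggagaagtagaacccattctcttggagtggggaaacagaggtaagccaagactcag
Abca8b: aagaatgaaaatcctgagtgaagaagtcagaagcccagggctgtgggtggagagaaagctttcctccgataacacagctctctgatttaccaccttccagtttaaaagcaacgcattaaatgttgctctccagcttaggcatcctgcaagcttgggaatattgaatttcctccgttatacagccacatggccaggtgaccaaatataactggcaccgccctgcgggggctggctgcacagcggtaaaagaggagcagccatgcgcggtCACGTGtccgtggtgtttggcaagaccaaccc

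The peroxisomal transporters carry long and very long chain fatty acids. *Abcd2* had the largest amplitude of the 43 genes, at 1.32 and 1.00 rpbp (ZT2), 32.0 and 40.3 (ZT6), 11.8 and 25.6 (ZT10), 15.1 and 8.48 (ZT14), 18.8 and 8.40 (ZT18), then 9.56 and 3.96 (ZT22). Both ZT2 samples lay below and both ZT6 samples above all others, and the means at these times, 1.16 ± 0.226 and 36.2 ± 5.88 rpbp (SD, n = 2), differed by a factor of 31.2. The ZT2 values are under the minimum of 8 rpbp, so the size of this fold is uncertain. It passed the F-test (limma adjusted p = 0.0049) in all 12 fits without 1 sample, though not without both ZT2 samples (0.106). *Abcd2* and, above, *Abcb6* and *Abcb8* were chosen for naming after their values had been seen. *Abcd3*, the most abundant, was at 617 and 529 rpbp at ZT6, and at 347 and 686 rpbp at ZT10, where the 2 series were far apart. With all samples it passed neither test (permutation p = 0.121, limma adjusted p = 0.133). The F-test was passed without 1 of the ZT10 samples (limma adjusted p = 0.0148 and 0.0405), and the gene was called rhythmic in series 1 alone (F24 0.569, exact permutation p = 0.0333).

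Further abundant genes took different courses. *Slc22a18*, an imprinted gene for a putative organic cation transporter, stayed between 102 and 135 rpbp (F24 0.35, permutation p = 0.147). *Abce1*, which recycles ribosomes and transports nothing, had both ZT2 samples above the other 10 (69.7 and 68.5 rpbp) and both ZT6 samples below (49.6 and 48.1 rpbp). It passed the F-test (limma adjusted p = 0.0128) in 10 of 12 fits without 1 sample, not in those without the ZT2 sample of series 1 or the ZT6 sample of series 2 (highest adjusted p 0.0549), and had no 24 hr rhythm by F24 (0.0578, permutation p = 0.75). Of the other 3 soluble members, *Abcf1*, *Abcf2* and *Abcf3*, none was called rhythmic or passed the F-test with all samples (permutation p between 0.195 and 0.603, limma adjusted p between 0.08 and 0.672). *Abcf3* passed the F-test without the ZT18 sample of series 1 (limma adjusted p = 0.044).

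**Figure D5:**
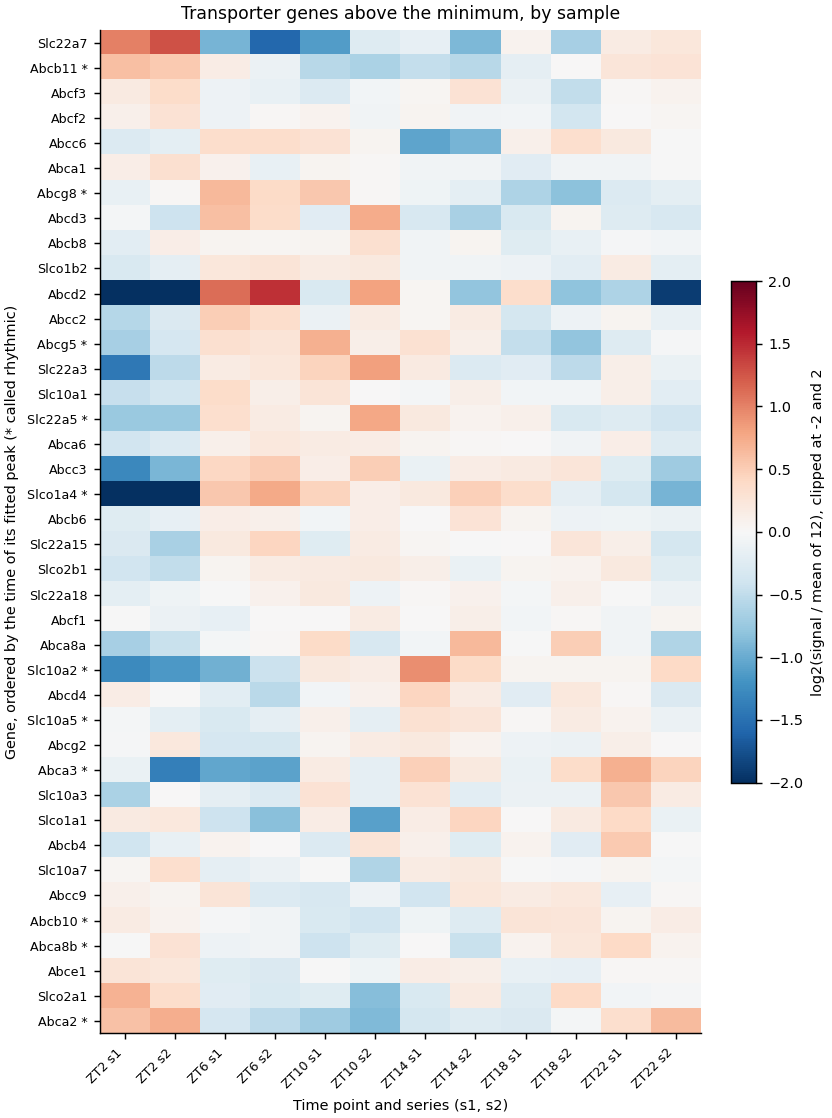
Signal of 40 transporter genes above the minimum in the 12 samples, as log2 of the signal over the gene's mean of 12 (colour, with the scale cut off at both ends). Columns are samples by time point and series, rows are genes in the order of their fitted peak, and asterisks mark the 11 genes called rhythmic. In both ZT2 columns *Slco1a4* (8.52 and 9.08 rpbp) and *Abcd2* are blue and *Slc22a7* (90.6 and 109 rpbp) is red.

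Bile acid synthesis, the nuclear receptors that control transporters, the FGF signal from the gut, other transporters and membrane anchors were looked up in a list of 22 further genes. Of these, 19 were above the minimum, 7 were called rhythmic, against 19.2% of all expressed genes (*Cyp7a1*, *Nr0b2*, *Nr1i2*, *Nr1i3*, *Fgfr4*, *Atp8b1* and *Slc9a3r1*) and 9 passed the F-test between time points, against 20.4%. *Nr1i3* (CAR), a receptor that regulates drug transporters and enzymes, was at 55.0 and 54.8 rpbp at ZT2 and at 122 to 252 rpbp elsewhere, with a peak at 12.0 hr (F24 0.719, permutation p = 0.0019, adjusted p = 0.04). *Nr1i2* (PXR), the receptor for many drugs, peaked at 13.1 hr (F24 0.698, permutation p = 0.0044, adjusted p = 0.0601), and its ZT2 samples were both below the other 10. *Nr1h4* (FXR), the bile acid receptor known to activate *Abcb11*, was at 85.9 and 94.0 rpbp at ZT2, below its other values of 109 to 151 rpbp, passed the F-test (limma adjusted p = 0.018) and was not called rhythmic (F24 0.382, permutation p = 0.116, adjusted p = 0.29). *Nr0b2* (SHP), a repressor induced by FXR, peaked at 22.9 hr (F24 0.565, permutation p = 0.0206, adjusted p = 0.12). *Cyp7a1*, the rate-limiting enzyme of bile acid synthesis, peaked at 11.4 hr (F24 0.599, permutation p = 0.0008, adjusted p = 0.0279). *Atp8b1*, the canalicular phospholipid flippase, peaked at 23.0 hr (F24 0.636, permutation p = 0.0111, adjusted p = 0.091). *Slc47a1* (MATE1), which exports organic cations, was lowest at ZT2 (52.9 and 54.9 rpbp against 83.5 to 149 rpbp), passed the F-test (limma adjusted p = 0.00215) and was not called rhythmic (permutation p = 0.0553, adjusted p = 0.196).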

How the data were processed

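RNA was measured in 12 mouse liver samples, 2 series of 6 time points. Per the labels, total RNA was made into TruSeq libraries, a kit that does not mark strand. The submitters' processing notes name CASAVA 1.8, TopHat and mm9. The authors deposited signal per gene in reads per base pair, normalized to 10000000 uniquely mapped sequences, and it was multiplied here by 4 to the 40000000 at which the study sets its minimum of 8 rpbp. The columns headed ZT20 hold the ZT22 samples. The authors' columns of F24, phase and p-value were not used. The study's methods list the mapped sequences of each library. Read counts per gene were not used here, so no counting interval is given.

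The members, role lists and marker lists were chosen with earlier results of these data known. F24, its p (10000 permutations of the 12 values, seed 1, 1 added to hits and draws), amplitude and phase were recomputed for the 10198 genes above the minimum, with Benjamini-Hochberg adjustment over all of them. The 2 ratios used 100000 permutations, or, for 1 series, all 720 orders. The F-test between time points used limma 3.58.1 (R 4.3.3), a test added after the data had been seen, as were the fits without both ZT2 samples. The other steps used Python 3.11.15, NumPy 2.4.6, pandas 2.3.3 and matplotlib 3.10.9. Genes named were all members of the 4 uptake and export lists above the minimum, all other rhythmic members and the 5 other members with the highest mean. A few genes that the rule or a list takes in are counted but not reported here by name. Alternatives changed the minimum, scaling, log scale, test, block and samples.

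The calls were tested on simulated data of 10198 genes, of which 9998 were flat and the others had 24 hr rhythms. The F24 call found 44 of 50 genes of 1.5-fold peak to trough and 48 of 50 of 2-fold, and made 208 calls among 9998 flat genes (2.08%). The limma F-test found 10 and 32 of 50, and made 9 calls among the flat genes. Its recovery of courses low or high at a single time point, for which it was added, was not tested. In the liver data 20.4% of the expressed genes passed the F-test, and its recovery at such a share was not tested either.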

Additional observations from a re-analysis of the deposited data

How the results depend on the processing

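With 2 samples a time point, 1 sample can decide a call, and no counting error is given. The 11 rhythmic transporter genes became 3 with an adjusted permutation p below 0.05, against 4.95% of all expressed genes. They became 7 with a limma cosine fit (8.58%) and 5 with that fit and a replicate block (6.76%). The 6 strong ones became 3 with the adjusted p (3.7%). Scaling, the log scale, a minimum of 16 or none and 100000 permutations kept the rhythmic count within 1.5 times, at 11 to 14. The share of all genes then tested was 14% to 20%. With the amplitude taken from time-point means the rhythmic count was 9, against 14.6% of all expressed genes. Leaving out samples or a whole series gave 1 to 14 rhythmic and 1 to 7 strong genes. The shares of all expressed genes ran from 2.8% to 19.6% rhythmic and from 1.88% to 9.65% strong. Series 2 alone gave 1 gene, rhythmic and strong (shares 3.62% and 2.34%). Series 1 alone gave 4 rhythmic and 2 strong (2.8% and 1.88%), and 2 of the 4 are among the 11. *Slc10a1* over *Abcb11* had an F24 of 0.739 to 0.929, with permutation p = 0.0833 in series 1 alone and 0.0667 in series 2 alone, and *Slco1b2* over *Abcc2* had one of 0.0251 to 0.49. The F-test between time points gave 11 to 19 genes with 1 sample left out and 7 without both ZT2 samples, alternatives chosen after seeing the data. Over the 11 rhythmic genes, the call was kept in 224 of 286 settings and lost in 62. The other named genes gained one in 14 of 467 settings, and 0 calls reversed. The causes were not tested, except that 1 series alone leaves 6 values.

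Deviations of the 2 series correlated at −0.153 to 0.206 over 15 pairs of time points (2 over 0.1), and 4 of 6 time points correlated above 0 on average. This check shows no clear pairing of the samples by series number. It cannot exclude a series effect limited to some genes or time points. With a replicate block for the series 9 genes were rhythmic and 6 strong, against 17.6% and 8.64% of all expressed genes, and 15 passed the F-test. F24 was then 0.828 (permutation p = 0.00116) for *Slc10a1* over *Abcb11* and 0.0824 (permutation p = 0.71) for *Slco1b2* over *Abcc2*. The block alone changed 2 of the 29 named genes' rhythm results, ending the calls of *Slco1a4* (permutation p = 0.0574) and *Abca3* (0.055), and it ended the F-test calls of 3 genes, among them *Abcg2* and *Slc22a3* (limma adjusted p = 0.0639 and 0.0667). Between the limma cosine fits without and with the block, *Slc22a5* and *Abca8b* lost the call.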
